A study of Mus musculus with 8 samples.

Results

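Metallothioneins are small cysteine-rich proteins that bind zinc and copper, and 6 genes of this system were followed in mouse hearts that lack Elmsan1 in cardiomyocytes. They are the metallothionein genes Mt1, Mt2 and Mt3, the zinc-sensing transcription factor gene Mtf1, the zinc exporter gene Slc30a1 and the zinc importer gene Slc39a14. They are 6 of the 45706 genes in the deposited table and were found by matching gene identifiers to these symbols in GENCODE M21. They were chosen by measured values, the large differences of Mt3 and Mt1 between knockout and control hearts, with mean levels of 11.8 CPM (counts scaled by library size) for Mt3 and 308 CPM for Mt1 in knockout hearts, against 1.91 CPM for Mt3 and 98.9 CPM for Mt1 in control hearts. Differences of the 6 genes between knockout and control hearts are therefore given as a description, with no test.

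RNA sequencing was done on whole hearts of 8-week-old male mice of 3 genotypes, with 1 library per heart. The knockout group (cKO, n = 4) was Elmsan1 fl/fl;aMHC-Cre+/-, the floxed control group (n = 2) was Elmsan1 fl/fl without Cre, and the Cre control group (n = 2) was aMHC-Cre+/- without floxed alleles. The αMHC (Myh6) promoter drives Cre in cardiomyocytes, so the deletion was aimed at these cells while RNA came from all cells of the heart, and a change in the number of cells of a type cannot be told apart from a change in RNA per cell. The comparisons address which transcripts differ after loss of Elmsan1, which encodes a part of the histone deacetylase complex MiDAC. They also address whether these transcripts differ between the Cre and floxed controls.

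Mt1 and Mt2 are made in most tissues and are switched on by zinc, cadmium, glucocorticoids and cytokines, while Mt3 is known best from the brain. The main switch for zinc is MTF1, which binds short promoter elements called metal response elements when free zinc rises and turns on Mt1, Mt2 and the exporter Slc30a1 (ZnT1). Slc39a14 (ZIP14) carries zinc, iron and manganese into cells and is induced in liver during inflammation. Metallothioneins hold zinc in reserve and protect heart tissue in mice from oxidative damage.

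The 3 metallothionein members lie side by side on the plus strand of chromosome 8, with Mt4, the family member of squamous epithelium, at the other end of a 43131 bp cluster. In GRCm38, Mt3 (ENSMUSG00000031760) spans 94152607 to 94154146, Mt2 (ENSMUSG00000031762) 94172664 to 94173568, and Mt1 (ENSMUSG00000031765) 94179082 to 94180327. The gap is 18517 bp between Mt3 and Mt2 and 5513 bp between Mt2 and Mt1. Mtf1 (ENSMUSG00000028890) lies on the plus strand of chromosome 4 from 124802104 to 124849800. Slc30a1 (ENSMUSG00000037434) lies on the plus strand of chromosome 1 from 191906767 to 191913247, and Slc39a14 (ENSMUSG00000022094) on the minus strand of chromosome 14 from 70303469 to 70351425.

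The promoters of Mt1, Mt2 and Slc30a1 are shown because MTF1 is known to act through them in mouse cells, and that of Mt3 because it had the largest fold difference of the family here. Each is the RefSeq window (GRCm38.p6) from 250 bases before to 50 bases after the gene's start site, 5′ to 3′ on the gene's strand. Capitals mark every match to the core of the metal response element, searched as TGCACNC or TGCGCNC on either strand, so that a match on the other strand reads GNGTGCA or GNGCGCA. The windows are chr8:94178839-94179138 for Mt1, chr8:94172368-94172667 for Mt2, chr8:94152357-94152656 for Mt3 and chr1:191906531-191906830 for Slc30a1.
Mt1: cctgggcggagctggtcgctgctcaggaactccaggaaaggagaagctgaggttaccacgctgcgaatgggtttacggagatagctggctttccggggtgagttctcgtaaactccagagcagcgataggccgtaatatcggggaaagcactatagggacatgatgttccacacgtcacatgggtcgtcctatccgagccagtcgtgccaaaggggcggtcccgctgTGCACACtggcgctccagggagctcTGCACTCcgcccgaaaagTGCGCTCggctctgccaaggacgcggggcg
Mt2: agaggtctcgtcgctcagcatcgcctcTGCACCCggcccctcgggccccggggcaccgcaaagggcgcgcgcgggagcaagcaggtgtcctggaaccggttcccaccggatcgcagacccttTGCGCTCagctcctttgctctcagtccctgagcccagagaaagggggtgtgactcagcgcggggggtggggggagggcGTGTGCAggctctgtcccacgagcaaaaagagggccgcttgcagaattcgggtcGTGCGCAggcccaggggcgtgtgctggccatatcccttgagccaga
Mt3: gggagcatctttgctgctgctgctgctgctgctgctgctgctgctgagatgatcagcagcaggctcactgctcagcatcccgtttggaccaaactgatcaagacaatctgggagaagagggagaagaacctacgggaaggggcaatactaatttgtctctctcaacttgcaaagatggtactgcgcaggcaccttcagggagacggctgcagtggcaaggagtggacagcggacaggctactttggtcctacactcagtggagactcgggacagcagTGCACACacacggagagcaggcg
Slc30a1: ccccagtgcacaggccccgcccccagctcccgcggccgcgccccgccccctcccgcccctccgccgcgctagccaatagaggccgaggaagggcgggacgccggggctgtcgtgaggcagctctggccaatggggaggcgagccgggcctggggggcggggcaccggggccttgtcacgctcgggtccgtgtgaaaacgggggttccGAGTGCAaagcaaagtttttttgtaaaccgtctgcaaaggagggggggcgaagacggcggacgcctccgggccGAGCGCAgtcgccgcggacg

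The Mt2 window held 4 matches and the Mt1 window 3, while the Slc30a1 window held 2 and the Mt3 window 1. In Mt1 the matches began at -23, 3 and 21 from the RefSeq start site, the first base of that transcript being 1. In Mt2 they began at -223, -128, -50 and 5, in Slc30a1 at -43 and 31, and in Mt3 at 28. The Mt4 window held 1 match and the Mtf1 window 0, and Slc39a14 was not among the windows read. Among 32851 RefSeq promoter windows of the same length 25.7% held at least 1 match, 1.97% at least 3 and 0.517% at least 4. The RefSeq start sites are not always the GENCODE gene starts given above. The Mt2 window ends at 94172667 and the GENCODE start is 94172664, so the match at 5 lies before that start. Mt1 has 3 annotated transcripts, and start sites other than the RefSeq one were not examined for it. Its matches at 3 and 21 are placed by that start alone and may lie before the start of another transcript. Only 1 window per gene is shown, and matches outside it were not counted, so these are not counts for whole promoters. A match is a run of letters and not a measured binding site, and longer or looser forms of the element were not searched.

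Elmsan1 itself held 15.2, 15.5, 15.3 and 12 CPM in cKO hearts, against 27.6 and 25.6 CPM in floxed and 28.6 and 25.3 CPM in Cre hearts, so each cKO library was lower than each control library, which matches the genotype labels. Libraries held between 17509564 and 25833259 estimated counts. Of 15289 genes tested, 52.1% were called in cKO against controls at an adjusted p under 0.05 (quasi-likelihood test of edgeR, Benjamini-Hochberg adjustment), 25.6% higher and 26.5% lower. Upper-quartile scaling and library size alone moved the median log2 fold change of all tested genes to 0.16 and 0.17, against 0.04 with the scaling used, and the higher share of called genes to 59.3% and 61.5%, against 49.1%. Cardiomyocyte markers summed to 42776 to 51350 CPM in cKO and 49165 to 52633 CPM in controls, so the tissue carried the defining genes of heart muscle in every library. The differences followed transcript length: protein-coding genes whose longest transcript was under 750 bp had a median log2 fold change of 0.88 over 209 genes, and those of 6000 bp or more a median of -0.35 over 2030 genes. No such slope was seen for Cre against floxed, where the class medians lay between -0.02 and 0.02.

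In all 4 cKO hearts the 3 metallothionein members were higher than in any control heart. Mt1 was 3.12-fold, Mt2 3.66-fold and Mt3 6.06-fold higher in cKO. Mtf1, the gene of their zinc-responsive activator, was lower in every cKO heart, by 1.76-fold. The exporter Slc30a1 and the importer Slc39a14 overlapped between the groups, with lower means in cKO. Across all genes, 23.4% of tested genes lay wholly above and 25.9% wholly below the controls in cKO. The share called higher was larger among short transcripts, as given below by length class.

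**Figure D1:**
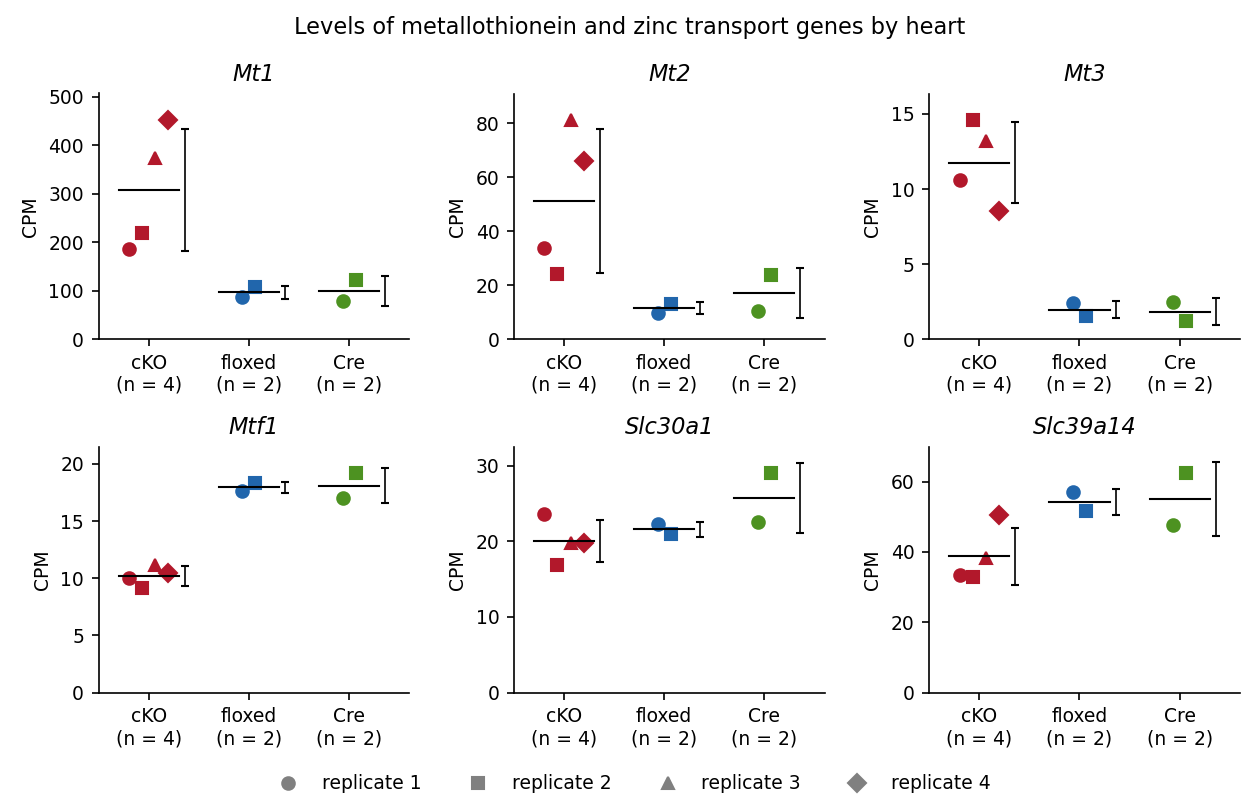
Level in CPM of each of the 6 genes in each heart of the cKO, floxed and Cre groups. Points are hearts, with the replicate number given by the marker shape, lines are group means and bars are ± 1 SD. Mt1, Mt2 and Mt3 lie above and Mtf1 below all control hearts in the 4 cKO hearts, and Slc30a1 and Slc39a14 overlap.

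Mt1, the most abundant of the family here, held 187, 220, 373 and 452 CPM in cKO replicates 1 to 4, against 87.9 and 107 CPM in floxed and 78.4 and 122 CPM in Cre hearts. Behind these values stood 3564, 4451, 8723 and 11868 counts for cKO, against 2053 and 2173 for floxed and 2066 and 2441 for Cre. The 4 cKO hearts were unlike each other, with replicates 3 and 4 well above replicates 1 and 2. The mean was 308 ± 126 CPM in cKO, against 98.9 ± 19.6 CPM in the controls (SD, n = 4 each), a log2 fold change of 1.64 (SE 0.32). It was 1.66 (SE 0.41) against floxed and 1.62 (SE 0.41) against Cre hearts, which share the cKO libraries.

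Mt2, the close partner of Mt1 and regulated with it in most tissues, held 33.9, 24.3, 81.2 and 65.8 CPM in cKO, against 9.94 and 13.2 CPM in floxed and 10.6 and 23.8 CPM in Cre hearts. The groups were separated only by the narrow step between 24.3 CPM in cKO replicate 2 and 23.8 CPM in Cre replicate 2. As for Mt1, cKO replicates 3 and 4 were the high hearts. The mean was 51.3 ± 26.7 CPM in cKO, against 14.4 ± 6.44 CPM in the controls (SD, n = 4 each), a log2 fold change of 1.87 (SE 0.49). The gene overlaps the antisense gene Gm45774, and with no strand setting given their reads cannot be told apart.

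Mt3, known in mouse brain as a zinc store of neurons and glia, held 10.6, 14.6, 13.2 and 8.57 CPM in cKO, against 2.4 and 1.57 CPM in floxed and 2.47 and 1.2 CPM in Cre hearts. Its pattern within the cKO group was not that of Mt1 and Mt2: replicate 2 was highest and replicate 4 lowest. The mean was 11.8 ± 2.7 CPM in cKO, against 1.91 ± 0.623 CPM in the controls (SD, n = 4 each), and the log2 fold change of 2.60 (SE 0.25) was the largest among the 6 genes. Against floxed hearts it was 2.55 and against Cre hearts 2.65 (SE 0.33 each). Without Cre replicate 1 the value against Cre was 3.28.

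Together the 3 genes held 232, 259, 468 and 526 CPM in cKO, against 100 and 121 CPM in floxed and 91.5 and 147 CPM in Cre hearts. Mt1 made up 82.9 ± 2.99% of the metallothionein counts in cKO and 86.1 ± 2.26% in controls (SD, n = 4 each), shares that are not corrected for length. Mt3 made up 4.58, 5.65, 2.83 and 1.63% in cKO, against 2.39 and 1.29% in floxed and 2.7 and 0.816% in Cre hearts, and these shares overlap between the groups. The ratio of Mt1 to Mt2 counts ran from 4.6 to 9.05 in cKO and from 5.14 to 8.85 in controls, so the pair kept a like proportion while both were higher in cKO. Mt4 had 0 counts in all 8 libraries, and a floor of 3 counts corresponds to 0.114 to 0.158 CPM per library.

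The family members could be counted apart from each other. The longest identical run in their transcripts was 27 bp between Mt1 and Mt3 and 20 bp between each of the other pairs. Mt1 and Mt3 shared no run of 31 bases with any other annotated gene, and Mt2 shared 3 such runs with Pip5k1a. The estimated counts of Mt1, Mt2 and Mt3 were whole numbers, within a tolerance of 1e-06, in all 8 libraries. Those of Mtf1 and Slc30a1 were whole in 0 of the 8 libraries and those of Slc39a14 in 5.

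Mtf1 held 10, 9.14, 11.2 and 10.5 CPM in cKO, against 17.6 and 18.3 CPM in floxed and 17 and 19.2 CPM in Cre hearts. The cKO hearts were close together and all lower than the controls. The mean was 10.2 ± 0.859 CPM in cKO, against 18 ± 0.947 CPM in the controls (SD, n = 4 each), a log2 fold change of -0.81 (SE 0.10). It was -0.81 against floxed and -0.82 against Cre hearts (SE 0.12 each). The gene overlaps n-R5s192 and the opposite-strand gene 1110065P20Rik, so a part of its reads may belong to them.

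Slc30a1, which exports zinc from the cell and is a target of MTF1, held 23.6, 16.8, 19.8 and 19.8 CPM in cKO, against 22.3 and 20.9 CPM in floxed and 22.5 and 29 CPM in Cre hearts. The highest cKO heart exceeded 3 of the 4 control hearts, and Cre replicate 2 was the highest of all. The mean was 20 ± 2.75 CPM in cKO, against 23.7 ± 3.59 CPM in the controls (SD, n = 4 each), a log2 fold change of -0.24 (SE 0.12). Its level thus did not stand apart in cKO as those of Mt1 and Mt2 did. Slc30a1 overlaps the opposite-strand gene 1700034H15Rik, so a part of its reads may belong to that gene.

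Slc39a14 held 33.5, 32.8, 38.4 and 50.4 CPM in cKO, against 56.9 and 51.7 CPM in floxed and 47.6 and 62.4 CPM in Cre hearts. Only cKO replicate 4 reached into the range of the controls. The mean was 38.8 ± 8.13 CPM in cKO, against 54.6 ± 6.39 CPM in the controls (SD, n = 4 each), a log2 fold change of -0.49 (SE 0.15).

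The median log2 fold change of the 6 genes was 0.70, beside 0.04 for all tested genes, of which 52.1% were called. Since this contrast chose the genes, the median is read no further.

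Per kilobase of the longest transcript, the scale on which levels of different genes can be compared, the order in cKO was Mt1 at 284 ± 116, Mt2 at 100 ± 52.2, Mt3 at 21.9 ± 5.03, Slc39a14 at 7.58 ± 1.59, Slc30a1 at 3.82 ± 0.525 and Mtf1 at 1.34 ± 0.113 CPM per kb (SD, n = 4). In controls it was Mt1 at 91.1 ± 18, Mt2 at 28.1 ± 12.6, Slc39a14 at 10.7 ± 1.25, Slc30a1 at 4.51 ± 0.685, Mt3 at 3.56 ± 1.16 and Mtf1 at 2.36 ± 0.124 CPM per kb (SD, n = 4). Mt3 thus stood above Slc39a14 in cKO but below Slc30a1 in controls, where its hearts overlapped those of Slc30a1 and Mtf1. No other adjacent genes in these orders overlapped between hearts of 1 group. Scaled by the first-listed transcript, which is shorter for Mt1 and Slc39a14, Mt1 was at 561 ± 229 in cKO and 180 ± 35.6 CPM per kb in controls, and Slc39a14 at 18.5 ± 3.88 in cKO and 26 ± 3.05 CPM per kb in controls. On that scale the hearts of Slc39a14 overlapped those of Mt3 in cKO and those of Mt2 in controls, so the order of these genes is not settled there.

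The comparison of the 2 control groups gave no call for any of the 6 genes. These groups differ in both the Cre transgene and the floxed alleles. With no group that lacks both, an effect of the transgene alone cannot be told apart. In Cre against floxed hearts, a comparison that the choice of genes did not use, the log2 fold changes were 0.04 for Mt1 (SE 0.44), 0.57 for Mt2 (SE 0.70), -0.09 for Mt3 (SE 0.39), 0.01 for Mtf1 (SE 0.14), 0.25 for Slc30a1 (SE 0.17) and 0.02 for Slc39a14 (SE 0.20). All had an adjusted p of 1 in the quasi-likelihood test of edgeR, Benjamini-Hochberg adjusted, and 0 of the 6 had an unadjusted p under 0.05 in edgeR or DESeq2. Among all tested genes, 15 (0.0981%) were called by edgeR (526 at an unadjusted p under 0.05) and 57 by DESeq2. The hearts of the 2 control groups overlapped in 5 of the 6 genes, and only Slc30a1 was higher in both Cre hearts than in both floxed hearts. With 2 hearts in each group the errors of Mt1, Mt2 and Mt3 were wide, and differences of the size of these errors were not detectable.

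**Figure D2:**
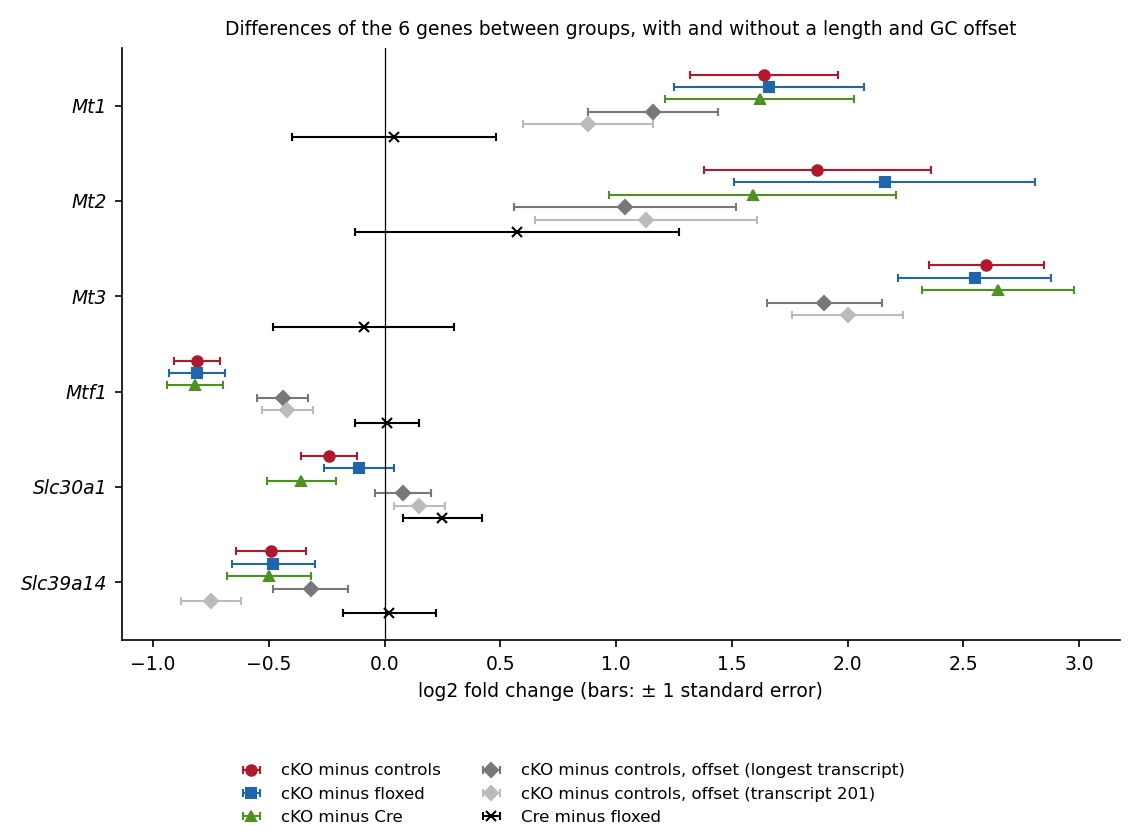
Log2 fold changes of the 6 genes (horizontal axis, with bars of ± 1 standard error) for cKO minus controls, cKO minus floxed, cKO minus Cre and Cre minus floxed, and for cKO minus controls once corrected for transcript length and GC content by an offset. Mt1, Mt2 and Mt3 stay right of 0 in each cKO comparison shown, Mtf1 and Slc39a14 left of it, and Slc30a1 changes side with the offset.

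The 3 metallothionein members are among the shortest transcripts of the table, at 1085 bp for Mt1, 511 bp for Mt2 and 536 bp for Mt3, and Mtf1 is among the longest at 7631 bp. The median log2 fold change of coding genes was 0.88 under 750 bp, the class of Mt2 and Mt3, and 0.57 from 750 to 1500 bp, the class of Mt1. It was -0.10 from 3000 to 6000 bp, the class of Slc30a1 (5244 bp) and Slc39a14 (5117 bp), and -0.35 in the class of Mtf1. Each of the 3 metallothionein members thus lay above and Mtf1 below the median of its own length class. In the class of Mt2 and Mt3 78.9% of coding genes were called higher, and in that of Mt1 57.7%. In the class of Mtf1 49.6% were called lower. The shares over all tested genes were 25.6% higher and 26.5% lower, so a higher short gene or a lower long gene was common here.

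A per-library offset for the length and GC content of the longest transcript was then applied. The log2 fold changes in cKO against controls were 1.16 for Mt1 (SE 0.28), 1.04 for Mt2 (SE 0.48) and 1.90 for Mt3 (SE 0.25). They were -0.44 for Mtf1 (SE 0.11), 0.08 for Slc30a1 (SE 0.12) and -0.32 for Slc39a14 (SE 0.16). With the first-listed transcript in place of the longest they were 0.88 for Mt1, 1.13 for Mt2, 2.00 for Mt3, -0.42 for Mtf1, 0.15 for Slc30a1 and -0.75 for Slc39a14. The direction held for every gene but Slc30a1, and the size was smaller for Mt1, Mt2, Mt3 and Mtf1. The part of transcript length in the differences was not tested beyond these offsets.

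**Figure D3:**
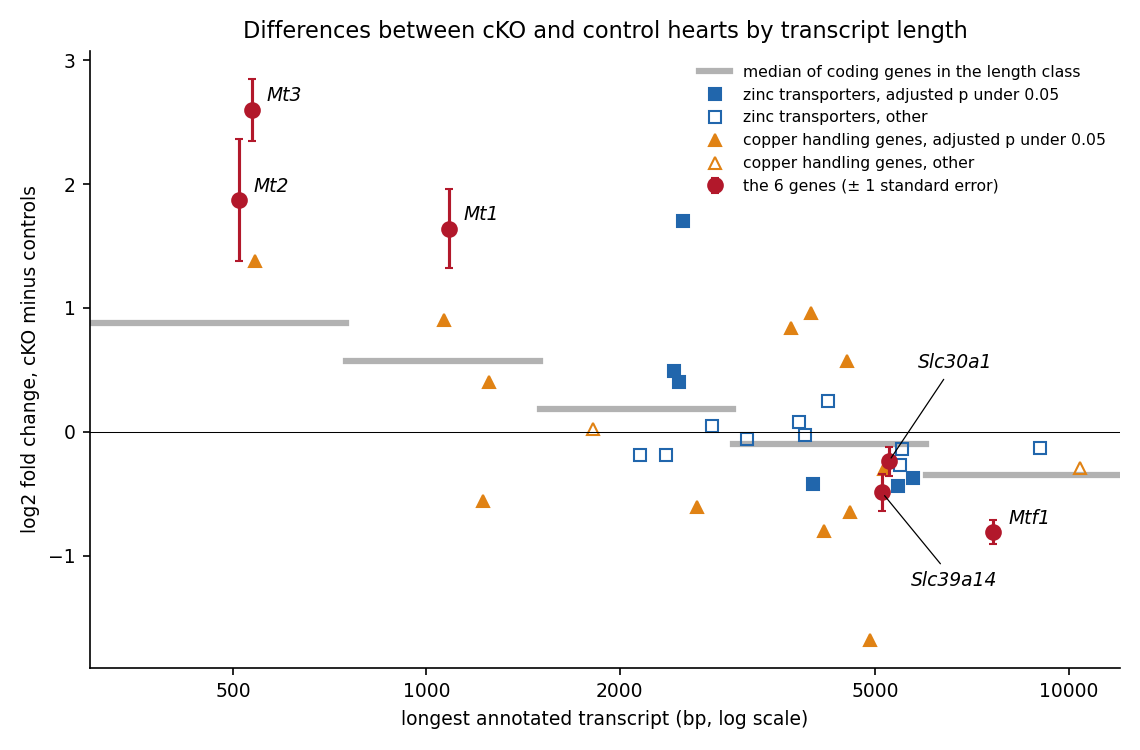
Log2 fold change of cKO minus controls against the length of the longest annotated transcript (log scale) for the 6 genes, the other zinc transporters and copper handling genes. Grey bars are medians of all coding genes in 5 length classes and run from 0.88 in the shortest to -0.35 in the longest class, with Mt1, Mt2 and Mt3 above and Mtf1 below their classes.

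Adipocyte markers were highest in the cKO hearts that were highest in Mt1 and Mt2, but did not follow these genes in every heart. Cre replicate 1 had a larger marker sum than both floxed hearts but the lowest Mt1, at 78.4 CPM. The sum of the 7 markers was 620, 840, 1285 and 1190 CPM in cKO, against 315 and 299 CPM in floxed and 362 and 549 CPM in Cre hearts, so that cKO replicates 3 and 4, the hearts highest in Mt1 and Mt2, were also highest here. Most of this sum was Fabp4, a fatty acid binding protein that capillary endothelium makes as well, with 913 ± 250 CPM in cKO, against 354 ± 98 CPM in the controls (SD, n = 4 each; log2 1.39, SE 0.22; edgeR adjusted p = 0.000667). Retn, the adipokine resistin, was the other of 2 markers called of 7, both higher (log2 1.38, SE 0.52; edgeR adjusted p = 0.0463, and 0.0996 with the length and GC offset). Among all tested genes 25.6% were called higher.

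Among more specific fat genes Lep was an exception, while Ucp1, Adipoq, Cidec and Plin1 were likewise highest in cKO replicates 3 and 4. Unlike the marker sum, these genes were each higher in both Cre hearts than in cKO replicates 1 and 2. Ucp1, the uncoupling protein of brown fat, held 7.31, 0.692, 74.8 and 79.8 CPM in cKO, against 0.214 and 0 CPM in floxed and 20.2 and 27.7 CPM in Cre hearts. Adipoq, the fat hormone adiponectin, held 4.16, 2.47, 14.3 and 16.2 CPM in cKO, against 2.06 and 3.93 CPM in floxed and 6 and 6.91 CPM in Cre hearts. Cidec, a lipid droplet protein, held 4.1, 3.9, 20.3 and 23.6 CPM in cKO, against 2.23 and 4.03 CPM in floxed and 4.67 and 7.57 CPM in Cre hearts. These 3 genes were high in cKO replicates 3 and 4, while cKO replicates 1 and 2 lay within the control range for all 3. Plin1, a lipid droplet coat protein, held 2.63, 0.79, 10.1 and 8.53 CPM in cKO, against 2.31 and 2.8 CPM in floxed and 5.92 and 6.56 CPM in Cre hearts. Lep, the fat hormone leptin, did not follow them, at 0.158, 0.296, 0.257 and 0.533 CPM in cKO, against 0.771 and 0.688 CPM in floxed and 0.873 and 0.301 CPM in Cre hearts. The edgeR adjusted p values of these 5 genes in cKO against controls ran from 0.0952 to 0.597. In cKO replicates 1 and 2 Mt1 was 187 and 220 CPM, above the highest control of 122 CPM. Mt3 was 10.6 and 14.6 CPM there, above the highest control of 2.47 CPM. Mt2 was 33.9 and 24.3 CPM, the latter close to the highest control of 23.8 CPM. The sum of the 7 markers in these hearts, 620 and 840 CPM, was also above the highest control of 549 CPM.

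With only cKO replicates 1 and 2 in the fit, the log2 fold change against controls was 1.04 for Mt1 (SE 0.17), 1.05 for Mt2 (SE 0.32) and 2.70 for Mt3 (SE 0.27), beside 1.64, 1.87 and 2.60 with all 4. It was -0.91 for Mtf1 and -0.72 for Slc39a14. The differences of Mt1 and Mt2 were thus smaller without replicates 3 and 4 and that of Mt3 was as large. For Mt1 and Mt2 this had to follow, since replicates 3 and 4 were the hearts highest in both genes. The fit is therefore no test of fat tissue, and its part in the levels of Mt1 and Mt2 was not tested.

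**Figure D4:**
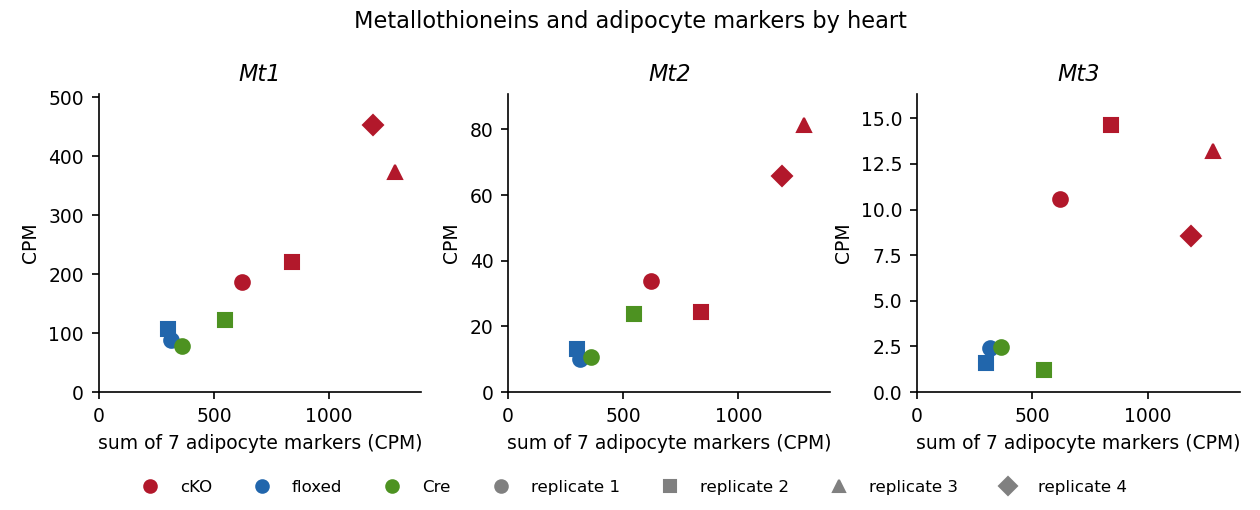
Level of Mt1, Mt2 and Mt3 (vertical axes, CPM) against the sum of 7 adipocyte markers (horizontal axes, CPM) in each of the 8 hearts, with groups by colour and replicate numbers by shape. For Mt1 and Mt2 cKO replicates 3 and 4 are high on both axes, and for Mt3 the 4 cKO hearts lie above the controls with replicate 4 the lowest of them.

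Marker sums of some other cell types differed as well, and the part of other cell types in the differences of the 6 genes was not tested. Macrophage markers summed to 192 to 250 CPM in cKO and 126 to 153 CPM in controls, with 5 of 8 called higher. Endothelial markers summed to 965 to 1145 CPM in cKO and 766 to 841 CPM in controls, with 5 of 8 called higher and 1 lower. Fibroblast markers summed to 978 to 1261 CPM in cKO and 717 to 969 CPM in controls, with 2 of 8 called higher and 0 lower. Smooth muscle and pericyte markers overlapped, at 584 to 994 CPM in cKO and 691 to 771 CPM in controls, with 1 of 8 called lower. Of the cardiomyocyte markers 2 of 8 were called higher and 2 lower. Among all tested genes 25.6% were called higher and 26.5% lower, so both cardiomyocyte counts and the higher fibroblast count lay near these shares. With the length and GC offset marker calls were both lost and gained, as for Cd68 (edgeR adjusted p = 0.19) and Tek (edgeR adjusted p = 0.0214).

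For Mt3, the markers of glia and neurons bear on the cells it is best known from. They summed to 16.8 to 23.5 CPM in cKO and 17.5 to 21.5 CPM in controls, with 1 called higher and 1 lower of 6 tested, while Gfap and Rbfox3 were too low to test. Among all tested genes 25.6% were called higher and 26.5% lower. The part of glia and neurons in the Mt3 difference was not tested. Markers of hepatocytes, cells known for strong Mt1 and Mt2 induction, were near 0, at 0.543 to 1.94 CPM in cKO and 0.3 to 0.639 CPM in controls over 6 genes. No marker of any list was at 0 in all libraries.

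The other zinc transporters went both ways. Of 22 further genes of the Slc30 exporter and Slc39 importer families 16 were tested, and 3 were higher, 3 lower and 10 not called in cKO against controls (edgeR's quasi-likelihood test, adjusted over all tested genes). Their median log2 fold change was -0.09, beside 0.04 for all tested genes, of which 52.1% were called. Slc30a8, the exporter of insulin granules, had 0 counts in all libraries, and Slc30a3, Slc30a10, Slc39a4, Slc39a5 and Slc39a12 were too low to test.

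Slc39a2 (ZIP2), a plasma membrane importer, differed most. It held 1.79, 2.37, 1.54 and 1.41 CPM in cKO, against 0.428 and 0.393 CPM in floxed and 0.683 and 0.752 CPM in Cre hearts, with no overlap. The log2 fold change was 1.70 (SE 0.30; edgeR adjusted p = 0.00075), and it was 1.67 with the length and GC offset (edgeR adjusted p = 0.00128). Like Mt3 it is a gene of low level in this tissue and was highest in cKO replicate 2.

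Slc39a7 (ZIP7), which releases zinc from the endoplasmic reticulum, rose to 78.8 ± 7.47 CPM in cKO, against 56.2 ± 1.32 CPM in the controls (SD, n = 4 each; log2 0.49; edgeR adjusted p = 0.000858). Slc39a13 (ZIP13), an importer of the secretory pathway, rose to 31.2 ± 3.55 CPM in cKO, against 23.9 ± 3.7 CPM in the controls (SD, n = 4 each; log2 0.40; edgeR adjusted p = 0.00617). Slc30a5 (ZnT5), which loads zinc into the Golgi, fell to 16.3 ± 0.319 CPM in cKO, against 21.8 ± 1.24 CPM in the controls (SD, n = 4 each; log2 -0.42; edgeR adjusted p = 0.00195). Slc39a9 (ZIP9) and Slc30a9 (ZnT9, a mitochondrial exporter) fell as well, by 0.44 and 0.37 on the log2 scale (edgeR adjusted p = 0.00218 and 0.0038). With the length and GC offset these 5 lost their calls, and 2 transporters were called higher and 1 lower. Slc39a2 kept its call there, Slc30a7 was higher at 0.35 and Slc39a1 lower at -0.37.

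Copper handling genes, the partners of the other metal that metallothioneins bind, also went both ways. Of 15 genes 14 were tested, and 6 were higher, 6 lower and 2 not called, and the median log2 fold change was -0.14. The shares over all tested genes were 25.6% higher and 26.5% lower, and their median was 0.04. Atox1, which carries copper to the Golgi pumps, was at 67 ± 12.1 CPM in cKO, against 25.8 ± 2.45 CPM in the controls (SD, n = 4 each; log2 1.38; edgeR adjusted p = 3.11e-05). Sod1, the copper and zinc superoxide dismutase, differed by 0.96, its copper chaperone Ccs by 0.90, the mitochondrial copper chaperone Cox17 by 0.84 and Commd1, a regulator of copper pumps, by 0.57 on the log2 scale.

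Among the lower genes, the copper importer Slc31a1 (CTR1) was at 18.7 ± 1.9 CPM in cKO, against 32.6 ± 2.12 CPM in the controls (SD, n = 4 each; log2 -0.80; edgeR adjusted p = 0.000105). Atp7a, the copper exporting pump, was at 1.25 ± 0.561 CPM in cKO, against 4.04 ± 0.905 CPM in the controls (SD, n = 4 each; log2 -1.68; edgeR adjusted p = 0.000744). Sco1, which delivers copper to cytochrome oxidase, fell by 0.61 (edgeR adjusted p = 0.0019). All 8 of these named genes kept their calls with the length and GC offset, where 5 of the list were higher and 4 lower.

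Of 6 other genes reported as MTF1 targets in the literature, 4 were called higher and 2, Slc39a10 and Gclc, were not called, beside 25.6% higher among all tested genes. Their median log2 fold change was 0.50, with no account taken of whether MTF1 raises or lowers each gene. Slc39a10 was at -0.14 (edgeR adjusted p = 0.289). Selenow, a small selenoprotein, was at 161 ± 22.5 CPM in cKO, against 91.6 ± 3.03 CPM in the controls (SD, n = 4 each; log2 0.81; edgeR adjusted p = 0.000128), with a transcript of 736 bp in the shortest class. Pgf, the placental growth factor, differed by 1.18 (edgeR adjusted p = 0.00589), Ndrg1 by 0.44 (0.0068) and the LIM domain protein gene Csrp1 by 0.55 (0.0322). With the length and GC offset 2 of the 6 were called, Pgf and Ndrg1. The Csrp1 call was lost without floxed replicate 1 (edgeR adjusted p = 0.11), without Cre replicate 2 (0.122) and with cKO replicates 1 and 2 only (0.102).

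Glucocorticoids are another known inducer of Mt1 and Mt2. Of 14 glucocorticoid targets 2 were higher and 5 lower, with a median of -0.04, beside 25.6% higher and 26.5% lower among all tested genes. With the length and GC offset 1 was higher and 6 lower, with a median of -0.39, and with cKO replicates 1 and 2 only 1 was higher and 8 lower. Klf9, a transcription factor induced by the glucocorticoid receptor, was at 31.9 ± 9.76 CPM in cKO, against 106 ± 14.9 CPM in the controls (SD, n = 4 each; log2 -1.73; edgeR adjusted p = 0.000276), and Zbtb16, Klf15 and Dusp1 fell by 1.31, 0.63 and 1.52. Dusp1 differed between the control groups, at 121 and 81.9 CPM in Cre, against 423 and 350 CPM in floxed hearts, so its value depends on which controls are used, at -0.56 against Cre and -2.48 against floxed. The count of higher glucocorticoid targets was 5 without cKO replicate 1 and 1 without any one of cKO replicates 3 and 4, floxed 1 and 2 and Cre 1 and 2.

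Of 12 targets of IL-6 and STAT3, the cytokine path to metallothionein induction, 6 were higher and 4 lower, with a median of 0.51, beside 25.6% higher, 26.5% lower and a median of 0.04 among all tested genes. Timp1, an inhibitor of matrix proteases, was at 5.58 ± 1.97 CPM in cKO, against 1.38 ± 0.154 CPM in the controls (SD, n = 4 each; log2 2.02; edgeR adjusted p = 0.000133). The receptor genes Osmr and Il4ra were higher by 0.70 and 0.69, while Stat3 itself fell by 0.61 (edgeR adjusted p = 0.000187). The count of higher genes was 3 without any one of cKO replicate 3, floxed 1 and floxed 2, and 3 with the length and GC offset.

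Of 8 NRF2 targets, genes of the oxidative stress response, 7 were tested, 1 was higher and 1 lower, beside 52.1% called among all tested genes. Hmox1, heme oxygenase, was at 7.82 ± 2.39 CPM in cKO, against 4.96 ± 0.443 CPM in the controls (SD, n = 4 each; log2 0.66; edgeR adjusted p = 0.0206). Its call was lost without any one of cKO replicate 3, floxed replicates 1 and 2, and Cre replicate 2, as well as under the length and GC offset (edgeR adjusted p = 0.208). The count of higher genes was 2 without cKO replicate 4. Txnrd1, thioredoxin reductase, fell by 0.64 (edgeR adjusted p = 0.000336). The lists overlap in part, since Lcn2, Cebpd, Gclc and Slc39a10 stand in 2 of them each.

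Of 23 annotated genes within 500 kb of the metallothionein cluster, members left out, 13 were tested, with 2 higher, 4 lower and 7 not called and a median of -0.14, beside 52.1% called and a median of 0.04 among all tested genes. The nearest tested neighbours were Bbs2, a gene of cilia assembly, at -0.14 (SE 0.15; edgeR adjusted p = 0.48) and the nuclear pore gene Nup93 at -0.28 (SE 0.13; edgeR adjusted p = 0.0976), whose starts lie at -80.2 and 35.5 kb from that of Mt1.

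Ogfod1, a ribosomal protein hydroxylase gene, fell to 17 ± 2.29 CPM in cKO, against 35.4 ± 1.96 CPM in the controls (SD, n = 4 each; log2 -1.06; edgeR adjusted p = 4.14e-05). Rspry1 fell by 0.39 and Nudt21, which acts in 3′ end formation, by 0.37 on the log2 scale. Nlrc5, a regulator of antigen presentation, was higher by 0.79 (edgeR adjusted p = 0.0322) and Cpne2 by 0.58 (edgeR adjusted p = 0.0187). The count of higher neighbours was 0 without cKO replicate 2 and without floxed replicate 1, and 1 without cKO 1, cKO 3, Cre 1 or Cre 2. The count of lower ones was 2 without Cre replicate 2. The Cpne2 call was lost without cKO 2, floxed 1 or Cre 2, that of Nudt21 without the same 3, that of Rspry1 without floxed 2 or Cre 2, and that of Nlrc5 without any heart but cKO 4 and floxed 2. With the length and GC offset Rspry1 (-0.14; edgeR adjusted p = 0.332), Nudt21 (-0.04; edgeR adjusted p = 0.79) and Cpne2 (0.31; edgeR adjusted p = 0.153) lost their calls.

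**Figure D5:**
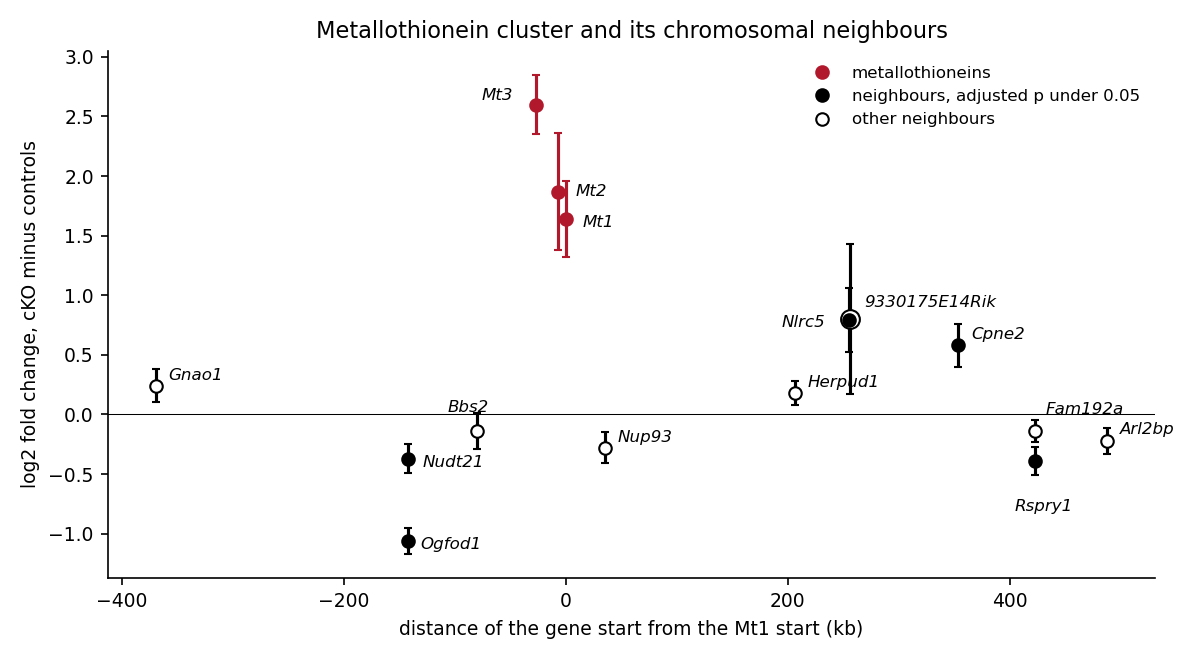
Log2 fold change of cKO minus controls (vertical axis, bars of ± 1 standard error) for the metallothionein members and 12 tested genes within 500 kb of their cluster, placed by the distance of the gene start from the Mt1 start in kb. Mt1, Mt2 and Mt3 lie between 1.64 and 2.60, Nlrc5 and 9330175E14Rik overlap near 0.8, and the other neighbours lie between -1.06 and 0.58.

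Genes whose level followed Mt1 or Mt3 most closely were ranked over the 8 libraries by Pearson's r of log2 CPM among 13204 genes with a mean of at least 1 CPM. The libraries fall into cKO and control hearts, so r here reflects the group difference as well as differences between hearts. For Mt1 the closest were Usmg5 (r = 0.994), Tapbp (0.990), Car4 (0.989), Eef1g (0.989) and Psmc4 (0.988). Car4, a carbonic anhydrase of capillary walls that itself binds zinc, was at 18, 21.6, 33.7 and 45.6 CPM in cKO, against 11 and 9.97 CPM in floxed and 9.04 and 13.2 CPM in Cre hearts, and so stepped up in cKO replicates 3 and 4 as Mt1 did. Mt2 stood at rank 162 (r = 0.955) and Mt3 at rank 2687 (r = 0.785).

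For Mt3 the closest were A230050P20Rik (r = 0.989), Upp2 (0.988), Os9 (0.985), Ptov1 (0.983) and Snrpf (0.983). Upp2, a uridine phosphorylase, was at 2.42, 3.26, 2.65 and 2.32 CPM in cKO, against 1.24 and 0.933 CPM in floxed and 1.18 and 1 CPM in Cre hearts, highest in replicate 2 like Mt3. Mtf1 ran opposite to Mt3 (r = -0.976) over the same libraries.

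With the 3 group means taken out, the genes that deviated with Mt1 from heart to heart were Adgrg1 (r = 0.992), Dhrs7b (0.991), Aplp1 (0.989), BC003965 (0.989) and Fam107a (0.986), over 8 libraries with 5 degrees of freedom. Fam107a was at 4.42, 5.93, 12.7 and 15.2 CPM in cKO, against 3.43 and 4.57 CPM in floxed and 1.82 and 4.66 CPM in Cre hearts, again with replicates 3 and 4 high. Mt2 had r = 0.889 with Mt1 on this measure, Slc39a14 0.858, Mtf1 0.762, Slc30a1 0.079 and Mt3 -0.568. Mt1 and Mt2 thus varied together between hearts of a group while Mt3 did not. Mt2 stood only at rank 237 of 13204 on this measure, so many other genes followed Mt1 more closely.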

How the data were processed

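For 8 heart libraries the authors deposited estimated counts of 45706 gene identifiers in 1 table, of which all columns were used. STAR 2.5.1b, DESeq2, mm10 and GRCm38 are named, per the submitters' processing notes. The counting program, annotation and strand setting were not given in the sources used here. Between 72% and 76.3% of values above 0 were whole numbers within 1e-06, so the deposited values were taken for expected counts and rounded, although the tests had been planned for plain counts. Symbols, GRCm38 positions and lengths came from GENCODE M21, and 563 identifiers had no symbol.

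Genes passed filterByExpr (15289 genes), with library sizes scaled by trimmed means (TMM). The 8 libraries entered 1 model of 3 group means (5 residual degrees of freedom) in edgeR 4.0.16 (R 4.3.3, robust quasi-likelihood), with Benjamini-Hochberg adjustment over all tested genes at 0.05. Controls are the floxed and Cre groups with the same weight. Levels are CPM with TMM factors. Standard errors were derived from the test statistic. P values measure only the spread between these libraries. The members, gene lists and tests were chosen with earlier results of these data known. Genes named are the 6, Mt4, Elmsan1, up to 8 called genes with the smallest p among zinc transporters and copper genes and up to 4 in other lists, called neighbours, and the 5 genes most like Mt1 or Mt3. Cell markers, and genes said to be not called or too low, are named outside this rule, and 1 called neighbour is counted but not reported here. Alternatives were other scalings, filters, DESeq2 1.42.0, a length and GC offset (mgcv 1.9.3, values for 15216 genes), a replicate block, pooled controls and leaving out each library. The offset with the first-listed transcript and the fit with cKO replicates 1 and 2 only were chosen after seeing the data. The fits were tested on simulated data. Promoter windows are from RefSeq (GRCm38.p6), found for 5 of the 6 genes. Figures were drawn with matplotlib 3.10.9.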

Additional observations from a re-analysis of the deposited data

Results flagged for a closer look

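Among 56 genes examined for a heart far from the other 3 of the cKO group, 2 stood out, and chance alone sets apart about 1 in 20 groups. Csrp1, an MTF1 target, was at 81 CPM in cKO replicate 4 and at 50.8, 50.8 and 51.1 CPM in the other cKO hearts. Elmsan1 was at 12 CPM in cKO replicate 4 and at 15.2, 15.5 and 15.3 CPM in the others. None of the 6 metallothionein and zinc transport genes had such a heart in the cKO group. The groups of 2 control hearts were too small to examine.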

How the results depend on the processing

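Mt1, Mt2, Mt3, Mtf1 and Slc39a14 kept their direction in the cKO comparisons under all alternatives run. Some of these values were small beside their errors. With the offset Mt2 was at 0.71 (SE 0.60) against Cre and Slc39a14 at -0.30 (SE 0.20) against floxed. Against controls, floxed and Cre in turn, Mt1 was at 0.88, 0.93 and 0.84 with the offset by the first-listed transcript, at 1.06, 1.07 and 1.05 with the replicate block, and at 1.04, 1.07 and 1.02 with cKO replicates 1 and 2 only. Mt2 was at 1.04, 1.37 and 0.71 with the offset, at 1.13 (controls) and 0.82 (Cre) with that transcript, at 1.11, 1.38 and 0.85 with the replicate block, and at 1.05, 1.34 and 0.77 with cKO replicates 1 and 2 only. Mt3 was at 1.90, 1.94 and 1.86 with the offset and at 2.00, 1.99 and 2.00 with that transcript, and its Cre against floxed value turned to 0.07 with the offset. Mtf1 was at -0.44, -0.43 and -0.45 with the offset, at -0.42, -0.41 and -0.43 with that transcript, at -0.68, -0.66 and -0.71 by library size alone, and at -0.70 (controls) and -0.68 (floxed) with upper-quartile scaling. Slc30a1 turned positive at 0.08, 0.19 with the offset (controls, floxed), 0.15, 0.25 and 0.04 with that transcript, and against floxed 0.02 with upper-quartile scaling and 0.04 by library size. Against Cre it was -0.03 with the offset. Slc39a14 with that transcript was at -0.75 (controls) and -0.77 (Cre). Levels per kb of the first-listed transcript were 561 for Mt1 and 18.5 for Slc39a14.

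Libraries with the same replicate number in their titles did not deviate together between groups (r from -0.108 to 0.133). The library names number the floxed hearts 2 and 3 instead of 1 and 2, and pairs by those numbers were not examined. With only 2 hearts in a control group, their deviations mirror each other. A shared batch was not tested beyond these values. Title numbers 3 and 4 occur only in cKO. The replicate block therefore compares cKO replicates 1 and 2 with the controls.

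Without 1 library, the ranges against controls, floxed, Cre and for Cre against floxed were, for Mt1, 1.40 to 1.81, 1.42 to 1.83, 1.34 to 1.94 and -0.29 to 0.32. For Mt2 they were 1.57 to 2.19, 1.85 to 2.39, 1.11 to 2.24 and -0.10 to 1.03, and for Mt3 2.38 to 2.91, 2.28 to 2.89, 2.21 to 3.28 and -0.74 to 0.33. For Mtf1 they were -0.86 to -0.76, -0.85 to -0.75, -0.90 to -0.76 and -0.05 to 0.08. For Slc30a1 they were -0.33 to -0.16, -0.21 to -0.03, -0.53 to -0.20 and 0.08 to 0.41, and for Slc39a14 -0.64 to -0.41, -0.63 to -0.41, -0.68 to -0.33 and -0.16 to 0.19.

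Of the lists, lower zinc transporters numbered 1 with either offset and higher MTF1 targets 2. Higher glucocorticoid targets numbered 1 with no filter, either offset, the block or cKO replicates 1 and 2 only, 0 with pooled controls and 1 to 5 without 1 library, and lower ones 8 with the block or cKO replicates 1 and 2 only. Lower IL-6 and STAT3 targets numbered 2 by library size alone or with cKO replicates 1 and 2 only, and higher ones 3 with either offset and 3 to 7 without 1 library. Higher NRF2 targets numbered 2 with upper-quartile scaling, library size or the 1 CPM filter, 0 with either offset, and 0 to 2 without 1 library. Lower neighbours numbered 2 with upper-quartile scaling or library size and 2 to 5 without 1 library, and higher ones 1 with either offset, the block, pooled controls or cKO replicates 1 and 2 only, and 0 to 2 without 1 library. The genes called in all were 32.1%, 26.1% and 25.8% with no filter (controls, floxed, Cre), where more genes were tested, and 41 to 54.1%, 22.6 to 46.3% and 24.6 to 45.7% without 1 library. For Cre against floxed they were 0.373% by DESeq2, 0.549% with the block, 0.215% with cKO replicates 1 and 2 only and 0.0439 to 0.119% without 1 library.

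For 50 other named genes, 852 of 950 values kept direction and call, 80 lost the call, 11 gained one and 7 turned. The 7 were Slc30a9 at 0.03 and Nudt21 at 0.01 (first-listed transcript), Slc39a13 at -0.01 (offset), Os9 at -0.17 and -0.11 (longest and first-listed transcript) and Aplp1 at -0.19 and -0.18 (block, cKO replicates 1 and 2 only). Apart from the offsets and left-out hearts, by construction, the cause of these shifts was not tested. Depth limits Mt3 in controls, at 1.2 to 2.47 CPM, and Mt4.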
